A study of Rattus norvegicus with 12 samples.

Results

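The 7 genes described here encode ion channels and sodium pump subunits of the sarcolemma, the surface membrane of the muscle fibre: Scn4a, Clcn1, Kcnj2, Kcnj11, Abcc9, Atp1b1 and Fxyd1. They were chosen by gene name, each name matched 1 row, and together they are 7 of the 30560 genes in the table. RNA was sequenced from the red inner part of the gastrocnemius, a calf muscle, of 6 wild-type male Wistar Kyoto rats at 9 weeks of age. Each animal gave 1 library of whole muscle, from snap-frozen tissue, and 1 library of mitochondria, which were taken by immunoprecipitation from a fresh portion, and RNase A and proteinase K were applied to them. No group had any other treatment or allele. All 12 libraries were depleted of ribosomal RNA and made with the same kit, from 50 ng of muscle RNA or 10 ng of mitochondrial RNA. The kinds of library thus differ in tissue state, enzyme treatment, RNA input and extraction kit as well as in source, and these cannot be told apart.

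An action potential in a muscle fibre starts with sodium entry through voltage-gated channels and spreads along the sarcolemma and its tubules. Potassium and chloride channels hold and restore the resting potential, and the sodium pump rebuilds the ion gradients. Nav1.4, the product of Scn4a, is the pore of the sodium channel of adult skeletal muscle, and ClC-1, the product of Clcn1, carries most of the resting chloride conductance. Kir2.1 (Kcnj2) is an inward rectifier that sets the resting potential, and Kir6.2 (Kcnj11) forms, with the sulfonylurea receptor SUR2 (Abcc9), the potassium channel that ATP closes. The pump is made of a catalytic alpha subunit and a beta subunit needed for its transport to the membrane, here the beta subunit of Atp1b1, and is regulated by phospholemman, the product of Fxyd1. All 7 mRNAs are transcribed in the nucleus.

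The table of RefSeq promoters (build GRCr8) held 5 of the 7 genes. The sequences of Scn4a and Clcn1 are shown because these channels are the most closely tied to skeletal muscle among the 7. Each line gives the 250 bases before the annotated start, 5′ to 3′ on the strand of the gene, and capitals mark matches to the motifs searched.
Scn4a: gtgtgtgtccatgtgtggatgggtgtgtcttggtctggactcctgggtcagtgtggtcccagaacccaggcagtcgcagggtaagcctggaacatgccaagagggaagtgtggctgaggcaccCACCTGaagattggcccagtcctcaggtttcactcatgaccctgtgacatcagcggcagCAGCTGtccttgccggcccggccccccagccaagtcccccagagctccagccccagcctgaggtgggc
Clcn1: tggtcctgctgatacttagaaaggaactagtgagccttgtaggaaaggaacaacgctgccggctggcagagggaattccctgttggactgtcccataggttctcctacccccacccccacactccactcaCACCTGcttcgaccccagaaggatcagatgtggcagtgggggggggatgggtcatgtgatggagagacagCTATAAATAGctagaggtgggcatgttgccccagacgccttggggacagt
The first lies at chr10:91796325-91796574 on the minus strand and the second at chr4:72138928-72139177 on the plus strand. The motifs were the E-boxes CAGCTG and CACCTG, which myogenic factors can bind, the MEF2 motif and the CArG box, searched on both strands. Scn4a held 1 CAGCTG and 1 CACCTG, and Clcn1 held 1 CACCTG and 1 MEF2 match, which begins 50 bases before the start. Among the 5 genes, CAGCTG occurred in 2, CACCTG in 4, MEF2 in 1 and the CArG box in 0, while among all 33469 promoters in the table the shares were 12.0%, 15.9%, 2.96% and 1.497%. A match is a description of the letters in this window and not a site shown to be bound.

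Library totals ran from 24309444 to 32055355 counts in muscle and from 720111 to 1785865 in mitochondria, so that each of the 7 genes rested on 1264 to 12417 counts per muscle library and on 14 to 131 per mitochondria library. The labelled tissue was checked with marker genes: 9 skeletal muscle fibre genes such as Acta1 and Ckm summed to 95730 to 130200 CPM in muscle (counts scaled to a library total of 1000000) and to 643 to 1099 CPM in mitochondria. These sums mark skeletal muscle and cannot show which part of it was taken. Genes of the mitochondrial genome, which mark the organelle, took 26.4% to 35.9% of counts in muscle and 12.9% to 51.5% in mitochondria, so that the groups overlapped on this measure. Mitochondria replicate 3 stood lowest and replicate 4 highest in that share.

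All 7 genes fell in the mitochondria libraries. In edgeR (quasi-likelihood test) with TMM factors (trimmed mean of M-values, a scaling meant to make most genes equal between libraries) and Benjamini-Hochberg adjustment at 0.05, 7 of 7 were lower and 0 were higher, against 30.3% lower and 63.0% higher among all 24679 genes tested. The largest fold by mean CPM was that of Atp1b1 (6.92-fold) and the smallest that of Kcnj2 (1.86-fold). For every one of the 7, the highest mitochondria library lay below the lowest muscle library, which was so for 6.77% of all genes tested, while 79.5% had all mitochondria libraries above all muscle libraries. All 6 animals had less of each gene in mitochondria than in their own muscle. Both libraries of an animal came from the same muscle, so a fall is a smaller share of the counts in the preparation. It is not a measure of RNA per fibre, and what lowered that share was not tested.

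**Figure D1:**
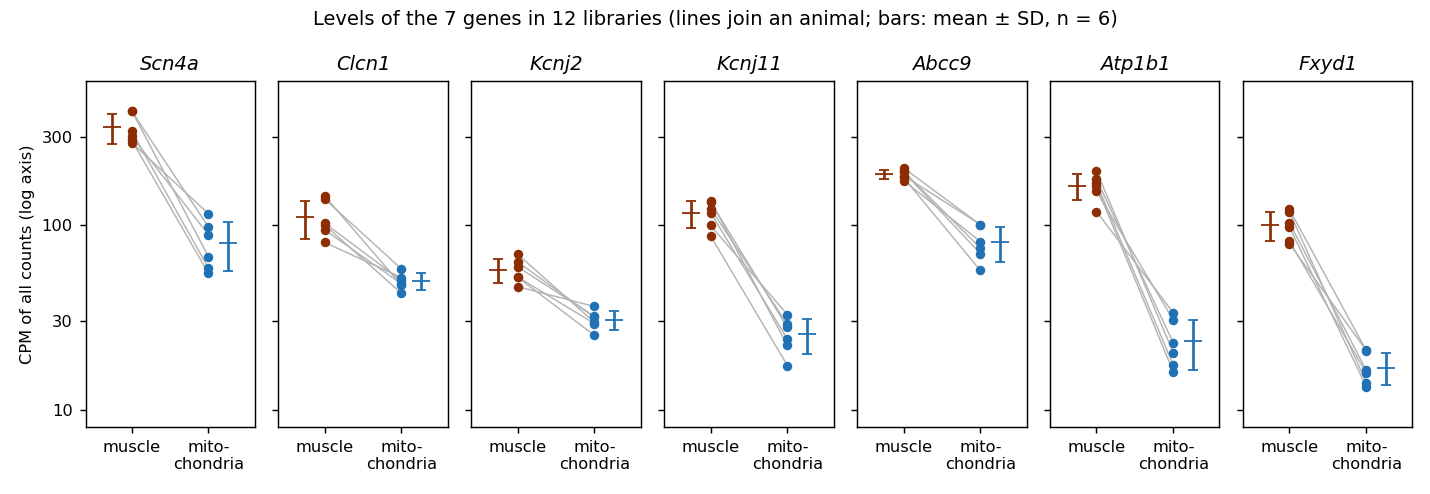
CPM of the 7 genes (log axis) in 6 muscle and 6 mitochondria libraries, with a line joining the libraries of an animal and bars for mean ± SD. The groups do not overlap for any of the 7 genes, and the fold between the means is largest for Atp1b1 (6.92-fold) and smallest for Kcnj2 (1.86-fold).

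The sodium channel gene Scn4a had 279, 311 and 415 CPM in muscle as its lowest, median and highest value, and 54.6, 77.7 and 115 CPM in mitochondria. Muscle replicates 1 and 5 were the high ones, at 413 and 415 CPM, and mitochondria replicate 3, with the lowest share of mitochondrial genome counts, was the highest of its group. The means were 336 ± 62.2 and 80.04 ± 23.9 CPM (SD, n = 6 each), a fold of 4.201. The log2 fold change was -4.23 ± 0.14 with TMM (SE, edgeR adjusted p = 2.86e-22).

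Clcn1, the chloride channel gene, had 80.3, 101 and 143 CPM in muscle (lowest, median and highest) and 42.6, 48.9 and 57.6 CPM in mitochondria. Its mitochondria values were the tightest of the 7 genes by CPM, with a coefficient of variation (SD as a percent of the mean) of 10.2%. It fell 2.21-fold by mean CPM, and by 3.22 on the log2 scale with TMM (SE 0.15, edgeR adjusted p = 1.71e-18). The same 2 muscle libraries that were high for Scn4a, replicates 1 and 5, were high for Clcn1.

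Among the potassium channel genes, the inward rectifier Kcnj2 changed least. Its lowest, median and highest values were 46.3, 55.7 and 69.3 CPM in muscle and 25.2, 30.6 and 36.1 CPM in mitochondria. Within animals it was 1.28-fold lower in mitochondria in animal 1 and up to 2.34-fold lower in animal 2. With TMM it fell by 3.0 on the log2 scale (SE 0.13, edgeR adjusted p = 3.67e-19). Kcnj11, the pore of the ATP-sensitive channel, had 87.1, 119 and 135 CPM in muscle and 17.3, 25.9 and 32.6 CPM in mitochondria. That is a 4.53-fold difference of the means, with a log2 fold change of -4.27 ± 0.15 (SE, edgeR adjusted p = 1.02e-21).

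Abcc9, the regulatory partner of Kcnj11, was the steadiest of the 7 between muscle libraries, at 174, 189 and 203 CPM as lowest, median and highest. In mitochondria it had 56.6, 78.0 and 100.2 CPM. The fall was 2.34-fold by mean CPM and 3.36 on the log2 scale with TMM (SE 0.11, edgeR adjusted p = 2.46e-22). Abcc9 is also known from vascular smooth muscle and pericytes, whose 6 marker genes (among them Acta2, Myh11 and Rgs5) summed to 388 to 522 CPM in muscle and 232 to 401 CPM in mitochondria. None of the 6 was at 0 in either group, and their part in the Abcc9 result was not tested.

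Of the pump genes, Atp1b1 had 118, 165 and 196 CPM in muscle (lowest, median and highest) and 16.0, 21.6 and 33.3 CPM in mitochondria. Muscle replicate 1 was the lowest of its group and mitochondria replicate 1 the highest of the other, so that animal 1 had the smallest fold, 3.54, and animal 6 the largest, 10.1. The log2 fold change of -4.91 ± 0.16 with TMM (SE, edgeR adjusted p = 2.16e-22) was the largest fall of the 7. Fxyd1 had 78.8, 99.8 and 121 CPM in muscle and 13.3, 16.0 and 20.9 CPM in mitochondria. Its mean CPM was 5.92-fold lower, and the log2 fold change with TMM was -4.66 ± 0.14 (SE, edgeR adjusted p = 4.89e-23).

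The size of these folds depends on what the libraries are scaled to, while the direction did not. With total counts as the only scaling the 7 log2 fold changes were -2.10 for Scn4a, -1.15 for Clcn1, -0.92 for Kcnj2, -2.19 for Kcnj11, -1.25 for Abcc9, -2.83 for Atp1b1 and -2.59 for Fxyd1. All 7 passed (largest edgeR adjusted p = 1.75e-06, Kcnj2), where 9.03% of all genes were lower and 84.3% higher. Of the called genes, 90.3% were then higher, against 67.5% with TMM. Relative to mitochondrial genome counts, 4 of 7 were lower (4.40% of all genes were lower and 80.7% higher) and 3 did not pass: Clcn1 at -0.94 ± 0.50, Kcnj2 at -0.64 ± 0.51 and Abcc9 at -0.88 ± 0.49 (SE; edgeR adjusted p = 0.0675, 0.225 and 0.0857). The median over the 7 genes was -4.23, -2.10 and -1.68 under these scalings, beside 2.51, 4.61 and 4.81 over all genes tested, so that a gene at 0 lay far below the middle gene. Thinning every library to 720111 counts brought the TMM values of Kcnj2 to -1.74, of Clcn1 to -1.97 and of Abcc9 to -2.17, all past the threshold. With thinned counts 29.5% of all genes tested were lower and 55.7% higher.

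**Figure D2:**
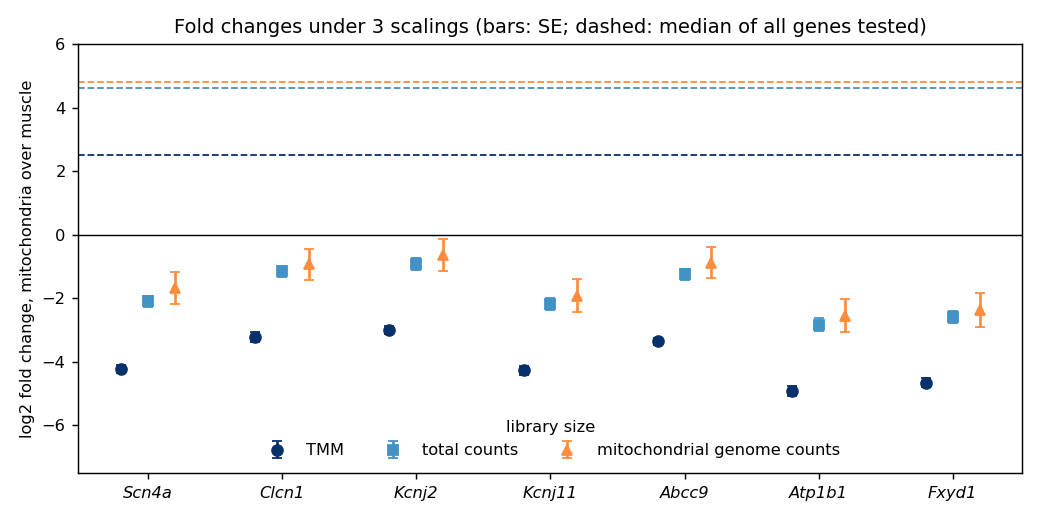
Log2 fold change, mitochondria over muscle, of the 7 genes with TMM, total counts or mitochondrial genome counts as library size. Bars are standard errors and dashed lines the median of all genes tested under each scaling (2.51, 4.61 and 4.81), above which no gene of the 7 lies.

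A share within a gene family does not depend on library scaling, so each gene was also counted as a percent of the counts on its family. In muscle Scn4a took 93.5% ± 2.14 of the counts on the 9 sodium channel alpha genes, and in mitochondria 12.3% ± 1.47 (SD, n = 6 each). The other genes of that family serve mainly nerve and heart. Scn1a had 14.4 ± 5.34 CPM in muscle and 59.0 ± 16.2 CPM in mitochondria. Scn2a, a channel of the brain, had 0.858 ± 0.329 CPM in muscle and 62.6 ± 17.2 in mitochondria, beside 80.04 ± 23.9 for Scn4a. CPM is not divided by gene length here, so these values do not order the genes by level.

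The same was seen in the other families of channels and transporters. Clcn1 took 51.9% ± 5.83 of counts on 9 CLC chloride channel and transporter genes in muscle and 13.5% ± 2.88 in mitochondria. Of the others, Clcn4 had 40.4 CPM in muscle and 21.8 CPM in mitochondria. Its log2 fold change with TMM was -3.05, beside -3.22 for Clcn1, so the fall was not particular to Clcn1. Clcn7, a lysosomal transporter, had 13.1 CPM in muscle and 66.9 CPM in mitochondria. Abcc9 took 58.0% ± 1.12 of counts on 10 ABCC transporter genes in muscle and 10.8% ± 1.20 in mitochondria, where Abcc8, the sulfonylurea receptor of pancreatic beta cells and neurons, had 87.1 ± 27.3 CPM and Abcc9 80.4 ± 17.2. Of the counts on 15 inward rectifier genes, Kcnj11 took 44.4% ± 3.95 in muscle and 4.96% ± 1.05 in mitochondria, and Kcnj2 took 22.3% ± 4.41 and 5.97% ± 0.814. Kcnj6, a neuronal channel, had 0.0752 ± 0.0369 CPM in muscle and 81.8 ± 21.3 CPM in mitochondria. Fxyd1 held 89.0% ± 1.96 of counts on 6 FXYD genes in muscle and 15.9% ± 2.64 in mitochondria, where Fxyd6 had 23.2 ± 4.17 CPM.

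Each of these 6 shares was lower in mitochondria in 6 of 6 animals, with no overlap between groups (two-sided exact permutation test, p = 0.0021645, the smallest that 6 against 6 allow; adjusted p = 0.00247 over 8 shares). Except for Kcnj2, each of the 7 genes had the most CPM of its family in muscle. Of all genes tested, 79.5% had all mitochondria libraries above all muscle libraries. A lower share was thus likely from the start, and these p-values are not separate support for the falls. Atp1b1 went from 49.8% ± 14.5 to 26.9% ± 5.73 of counts on 4 pump beta genes, with overlapping groups (exact permutation p = 0.00866, adjusted p = 0.00866). It was lower in 5 of 6 animals, and a sign-flip test that pairs the animals gave an exact p of 0.0625. An equal split of counts would give 11.1% in a family of 9, 6.67% in one of 15, 10.0% in one of 10, 16.7% in one of 6 and 25.0% in one of 4. The mitochondria shares of the 7 genes lay within 2.35 percentage points of those values, while the muscle shares lay 15.6 to 82.4 points above.

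**Figure D3:**
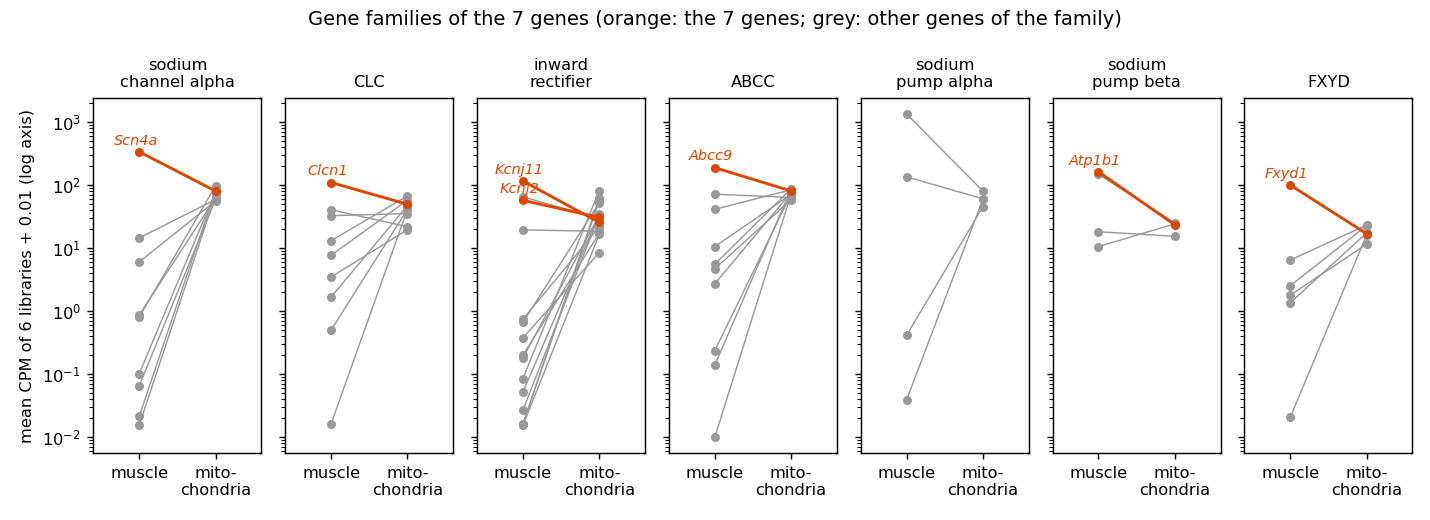
Mean CPM of 6 libraries plus 0.01 (log axis, not divided by gene length) for every gene of 7 families, with the 7 genes of this account in orange and the others in grey. In muscle the FXYD genes spread from 0.0108 to 99.7 CPM, and in mitochondria from 11.5 to 23.2. The inward rectifier genes stayed the most spread in mitochondria, from 8.44 to 81.8 CPM, beside 0.00541 to 115.5 in muscle.

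Of the 50 other genes in these families, all of them tested, 34 rose, 11 fell and 5 did not pass with TMM (median log2 fold change 2.69, beside 2.51 for all genes), where 63.0% of all genes were higher and 30.3% lower. With total counts 41 rose and 5 fell, where 84.3% of all genes were higher and 9.03% lower. These counts lay near the background of the whole table. The 11 that fell included close relatives of the 7 genes with known roles in muscle. Kcnj12, the inward rectifier Kir2.2, had 64.8 ± 12.7 CPM in muscle and 29.6 ± 7.48 in mitochondria, with a log2 fold change of -3.24 ± 0.14 with TMM that is close in size to the -3.0 of Kcnj2. Atp1b2, the other main beta subunit of muscle, went from 148 ± 76.6 to 25.0 ± 8.18 CPM. Kcnj8, the pore of the vascular ATP-sensitive channel, had 19.4 ± 4.43 CPM in muscle and 18.5 ± 3.74 in mitochondria. It fell with TMM (-2.18 ± 0.15), was at -0.10 with total counts (edgeR adjusted p = 0.639) and at 0.19 with mitochondrial genome counts as library size (edgeR adjusted p = 0.74).

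The transcripts of partner proteins were not lower in proportion. The ratio of Kcnj11 to Abcc9 counts within a library, which no scaling affects, was 0.611 ± 0.0744 in muscle and 0.329 ± 0.0921 in mitochondria. Scn4a per Clcn1 fell from 3.10 ± 0.213 to 1.62 ± 0.464, Kcnj11 per Kcnj8 from 6.23 ± 1.72 to 1.40 ± 0.293, and Abcc9 per Abcc8 from 37.1 ± 11.02 to 0.952 ± 0.161.

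These 4 ratios did not overlap between groups (SD, n = 6 each; two-sided exact permutation test on log2 ratios, p = 0.0021645, adjusted p = 0.00278 over 9 ratios computed). The pairs were chosen after levels had been seen. Abcc8 rose from 5.51 to 87.1 mean CPM where Abcc9 fell, and Kcnj8 stayed near 19 CPM where Kcnj11 fell. Lower ratios for these pairs were thus likely from the start, and the p-values are not separate support for the falls. How many gene pairs of the whole table separate was not counted. The ratio of Kcnj2 to Kcnj12 was 0.918 ± 0.257 in muscle and 1.08 ± 0.276 in mitochondria, and did not differ beyond the spread of replicates (exact permutation p = 0.301, adjusted p = 0.339). Atp1b1 per Atp1b2 was 1.47 ± 0.990 and 0.967 ± 0.202 (exact permutation p = 0.442, adjusted p = 0.442). In that pair the muscle libraries ranged from 0.439 to 3.27 and the mitochondria libraries only from 0.667 to 1.18.

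A list of 30 further genes of sarcolemma excitability and ion balance was read from the same fit: 24 fell, 4 rose and 2 did not pass with TMM, where 30.3% of all genes tested were lower and 63.0% higher. Its median log2 fold change was -2.28. Scaled to total counts, 14 were lower and 14 higher (9.03% and 84.3% of all genes), with a median of -0.19. With mitochondrial genome counts as library size 9 were lower and 11 higher (4.40% and 80.7% of all genes), with a median of 0.13. Cacna1s, the pore of the calcium channel that senses voltage in the tubules, was among the 3 genes of the list with the most counts in muscle and among the 3 largest falls (-5.15 ± 0.16, edgeR adjusted p = 4.14e-23). It went from 804 ± 140 to 98.7 ± 22.9 CPM. Among the largest rises were those of the chloride channel Clcn2 (2.68 ± 0.18) and the potassium channel Kcnk5 (2.22 ± 0.20), both under 2 CPM in muscle. Fxyd5, an FXYD regulator of the pump, also rose (1.06 ± 0.20).

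Some relatives of the 7 genes on that list were called under one scaling and not under another. Kcnj12 did not pass with mitochondrial genome counts as library size (-0.85, edgeR adjusted p = 0.106). Atp1b3, the third beta subunit, had 18.2 ± 2.31 and 15.4 ± 4.78 CPM. It fell by 2.37 on the log2 scale with TMM, but was at -0.28 with total counts (edgeR adjusted p = 0.190) and at 0.06 with mitochondrial genome counts as library size (edgeR adjusted p = 0.914).

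Whole muscle also differed between animals, and the 7 genes did not move together there. Expressed as CPM of nuclear counts, to take out the share of the mitochondrial genome, Abcc9 differed by only 1.08-fold between the highest and the lowest animal, Scn4a by 1.32-fold, Kcnj11 by 1.36-fold, Clcn1 by 1.56-fold, Fxyd1 by 1.57-fold, Kcnj2 by 1.63-fold and Atp1b1 by 1.89-fold. Clcn1 was high in animals 1 and 5 and Kcnj2 and Atp1b1 were lowest in animal 1, while Kcnj11 differed little between its 4 highest animals. Counting error came to 1.04% to 2.51% of a value per library on average. With 1 library per animal, differences between animals and between library preparations cannot be told apart. Myosin heavy chain genes, which mark fibre types, differed as well: Myh4, of the fastest fibres, took 42.1% to 83.7% of the summed counts on Myh2, Myh4 and Myh7, lowest in animal 3 and highest in animal 1. On average Myh4 took 62.85% and Myh7 17.5%, and the label of red muscle was not tested against these shares. Myh1 matched no gene name and is not in that sum.

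The relation of levels in muscle to that Myh4 share was computed over 6 animals for the 7 genes and for partner genes such as Atp1b2, chosen after levels had been seen. Atp1b1 was lower where the Myh4 share was higher, from 303 nuclear CPM in animal 3 to 160 in animal 1 (Pearson r = -0.955, exact permutation p = 0.00417, adjusted p = 0.0229 over 11 relations; Spearman rho = -0.943, p = 0.0167, adjusted p = 0.0919). Its counterpart Atp1b2 went the other way, from 92.9 in animal 3 to 365 in animal 1 (r = 0.929, exact permutation p = 0.0125, adjusted p = 0.0344; rho = 0.829, p = 0.0583, adjusted p = 0.160). Clcn1 rose with it, from 124 to 194 (r = 0.931, exact permutation p = 0.0125, adjusted p = 0.0344; rho = 0.829, p = 0.0583, adjusted p = 0.160).

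Without animals 1 and 3, the farthest from the median share, r was -0.883 for Atp1b1, 0.594 for Atp1b2 and 0.769 for Clcn1 over the 4 animals left. The relations of Atp1b2 and Clcn1 thus rest in part on those animals, and by rank none of these 3 passed after adjustment. The other 5 of the 7 genes did not pass, with r from -0.772 (Kcnj2) to 0.775 (Scn4a). The share of mitochondrial genome counts was also lowest in muscle of animals 1 and 5 (26.4% and 27.2%), and its part in these relations was not tested.

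**Figure D4:**
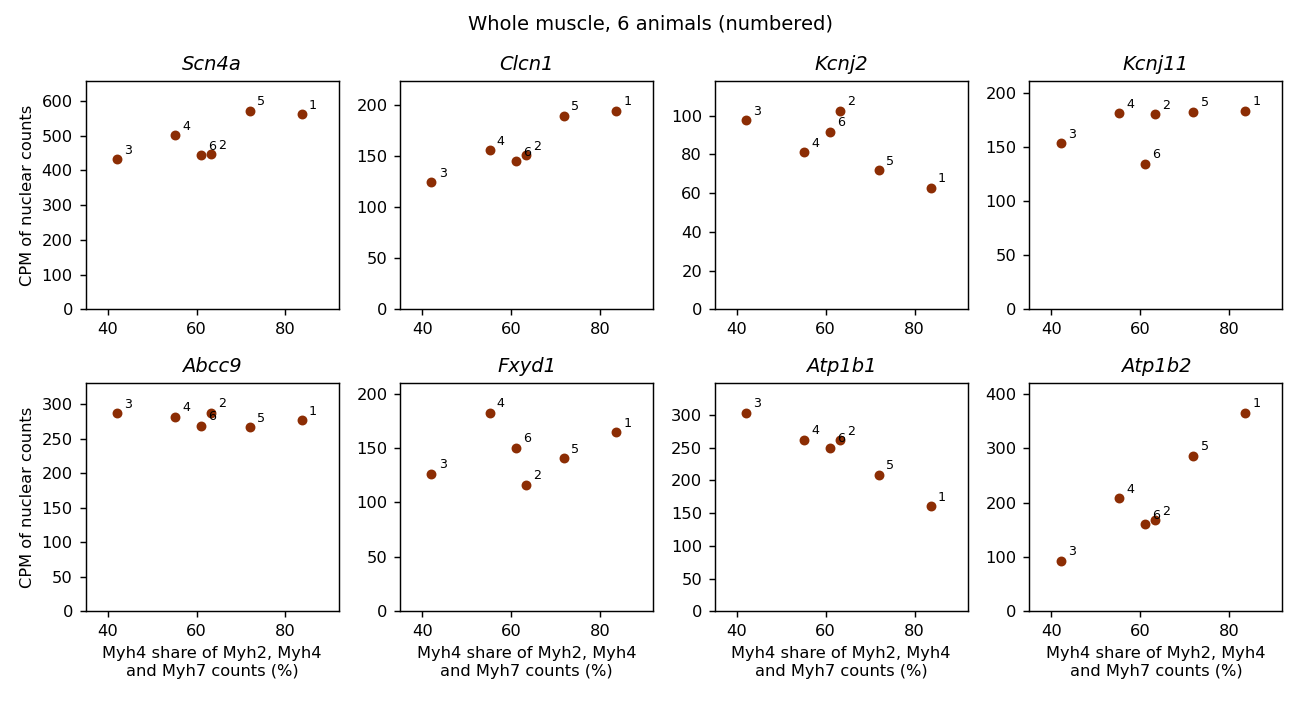
Muscle levels (CPM of nuclear counts) of the 7 genes and of Atp1b2 in 6 numbered animals against the Myh4 share of counts on Myh2, Myh4 and Myh7. Atp1b1 declines from 303 in animal 3 to 160 in animal 1 while Atp1b2 climbs from 92.9 to 365, and Abcc9 stays between 266 and 287.

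In the mitochondria libraries counting error made up much of the spread between replicates of some of the 7 genes. Scn4a had a coefficient of variation of 29.9% by CPM and of 10.3% by CPM of nuclear counts, where counting error alone gave 10.2%. For Abcc9 the values were 21.4%, 10.7% and 10.1%, and for Fxyd1 19.6%, 16.6% and 22.2%. The spread by nuclear counts was above counting error for Atp1b1 (28.8% against 19.1%), Kcnj11 (22.5% against 18.2%) and Clcn1 (20.9% against 12.9%). Clcn1 had only 10.2% by CPM of all counts. For Kcnj2 the spread by nuclear counts was 15.6%, beside a counting error of 16.4%. At this depth differences between animals under about the counting error cannot be read in mitochondria for any of the 7 genes. The share of mitochondrial genome counts, which sets the gap between both measures, ranged from 12.9% to 51.5% there.

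To name genes with a like profile, the root mean square difference in log2(CPM + 1) over the 12 libraries was taken against 16792 named nuclear genes. The nearest to Scn4a were Lamc1 (0.30) and Srrm2 (0.31), to Clcn1 Camk2a (0.20) and Stat5b (0.26), and to Kcnj2 Tax1bp1 (0.14) and Hnrnpc (0.19). For Kcnj11 they were Nudt3 (0.19) and Serinc1 (0.27), and for Abcc9 Wnk1 (0.18) and Man2b2 (0.19). Atp1b1 was nearest to Tmem182 (0.29) and Acaa2 (0.31), and Fxyd1 to Tob1 and Calm2 (0.26 each). Lamc1, for example, had 328 ± 23.5 CPM in muscle and 93.0 ± 21.6 in mitochondria, and Tax1bp1 51.9 ± 7.27 and 29.4 ± 5.28.

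Markers of other cell types moved in both directions beside the 7 genes, in a table where 30.3% of genes were lower and 63.0% higher with TMM. With TMM all 9 fibre markers fell (median log2 fold change -9.17), as did the 6 smooth muscle and pericyte, 5 endothelial and 5 fibroblast markers (medians -2.88, -2.21 and -4.91). With total counts 9, 3, 2 and 3 of them fell (9.03% of all genes were lower and 84.3% higher). Neuronal and adipocyte markers rose, 5 of 5 and 4 of 4 (medians 7.17 and 4.08), from sums of at most 0.566 and 3.91 CPM in muscle to 85.7 to 155 and 64.4 to 131 CPM in mitochondria. Of 4 macrophage and leukocyte markers 3 rose, and of 5 Schwann cell markers 2 fell and 3 did not pass. The neuron list had 1 of its 5 genes at 0 in muscle, and no marker of any list was at 0 in mitochondria. The part of these cell types in the results for the 7 genes was not tested.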

How the data were processed

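The deposited values are raw counts of reads for each gene in 12 libraries, made by the authors. Per the submitters' processing notes, FastQC 0.74, cutadapt 4.6, STAR 2.7.11a and HTSeq were used with the build mRatBN7.2. Not given in the sources used here were annotation release, strand setting and treatment of reads with several matches, so reads of overlapping or antisense genes cannot be separated. Gene lengths were not used, so CPM values of different genes do not order their levels.

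Groups and animal numbers came from the titles and descriptions. CPM is counts scaled to a library total of 1000000, given as mean ± SD (n = 6). Counting error is 1 over the square root of the count. The test was edgeR 4.0.16 (glmQLFit, glmQLFTest) in R 4.3.3 on the whole table, with group as the only term, TMM factors, filterByExpr with a minimum count of 10, and Benjamini-Hochberg adjustment over all genes tested at 0.05. The SE is the absolute log2 fold change over the square root of F. A positive value means higher in mitochondria. The fit was also run on simulated counts in which few genes changed, as many up as down. Most genes were called in the real data, so the simulation does not test the scaling there. Shares and ratios were compared with exact permutation tests (enumerated in Python 3.11.15 and checked against SciPy 1.17.1). P-values rest on the spread between the 6 libraries of a group, where animal, preparation and counting error are mixed. Libraries of an animal were paired only in the animal block and the sign-flip tests.

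Same-numbered libraries come from the same animal. Over 24679 genes, deviations from the group means correlated by -0.0103 to 0.0202 within animals. For 2 of the 6 muscle libraries the best correlation was with the mitochondria library of the same animal. The pairing thus rests on the labels. Alternatives were RLE factors, total counts, nuclear genes alone, mitochondrial genome counts as library size, DESeq2 1.42.0, no filter, an animal block, thinned counts and left-out libraries. Genes named are the 7, the genes of the excitability list with the most counts in muscle or the largest changes, partners in role, the relatives with the highest CPM in each family, and the 2 nearest profiles. The members, lists and tests were chosen with earlier results of these data known. Ratios and relations to myosin were added after levels were seen. Some genes of the lists and families are counted but not reported here by name. Kcne3, Fxyd3 and Myh1 matched no name in the table. Promoters came from RefSeq (GRCr8), not the build of the counts.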

Additional observations from a re-analysis of the deposited data

Results flagged for a closer look

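Of 48 groups of 6 values tested, 2 held a library whose gap to its neighbour was large against the range of the group, and chance alone flags about 1 in 20 groups. Both were mitochondria replicate 6. Scn4a took 9.49% of the sodium channel alpha counts there, the lowest of its group, and Abcc9 took 13.1% of the ABCC counts, the highest of its group.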

How the results depend on the processing

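With each of the 12 libraries left out in turn, 7 of 7 genes were lower every time, and the list of 30 had 24 to 25 lower and 4 to 5 higher. The all-gene counts then ranged from 6925 to 7514 lower (29.2% to 34.9% of genes tested) and from 11478 to 16363 higher (57.4% to 63.7%). All 7 were also lower with RLE factors (26.6% of all genes lower), DESeq2 (21.8%), nuclear genes alone (30.3%), no filter (25.7%) and thinned counts (29.5%). The same held without mitochondria replicates 3 and 4 (30.2%) and with the replicate block, alone (30.1%) or with total counts (8.96%). Relative to mitochondrial genome counts 4 of 7 were lower (4.4% of all genes). Of all genes, 2228 were lower with total counts, 2211 with the replicate block and total counts, 1071 relative to mitochondrial genome counts and, with thinned counts and fewer genes tested, 3716, with 7006 higher. The list had 14 lower and 14 higher with total counts, with or without the block, 9 lower and 11 higher relative to mitochondrial genome counts, and 7 higher with thinned counts. Relative to mitochondrial genome counts Atp1b3 turned to 0.0646 and Kcnj8 to 0.19. The Atp1b1 share difference of -22.86 points missed the threshold with animals paired (replicate block, exact sign-flip p = 0.0625). It was -27.2 to -18.9 points with single libraries left out. The block changed no other call in the 7 genes, shares or ratios. The Scn4a relation to Myh4 passed before adjustment with CPM of all counts (r = 0.843, exact permutation p = 0.0347). Causes were not tested. In mitochondria 14 to 131 counts per gene and library limit the precision.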
